A study of Mus musculus with 24 samples.

Results

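Transcripts of 40 genes of fatty acid oxidation, most of them known targets of the receptor PPARα, were measured in the livers of female mice given the mycotoxin fumonisin B1 (FB1). A gene was included where a non-control probe of the array carried its symbol. All 40 were found, with 55 probes, among 37325 genes on the array, and all 40 were among the 22088 genes tested. FB1 is made by maize moulds and inhibits the ceramide synthases. The KO mice lacked both liver X receptors, LXRα and LXRβ, which bind oxysterols and are encoded by Nr1h3 and Nr1h2. The design crossed genotype with treatment, so each genotype had its own control.

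KO FB1 mice lacked both receptors and received 10 mg of FB1 per kg of body weight each day for 1 month. KO control mice had the same genotype and received water. WT FB1 and WT control mice carried both receptors and received that dose of FB1 or water for the same time. All 24 mice were females of the sv129/C57 strain, aged 8 weeks per the labels, with 6 mice in each group and 1 array per mouse. The labels name no littermates, housing or tissue of the deletion. The p-values therefore measure the spread between these mice, and precision is limited by having 6 arrays in a group.

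Fatty acids enter the hepatocyte, are joined to coenzyme A, and are then taken by the carnitine shuttle into mitochondria, where β-oxidation shortens them step by step. Peroxisomes shorten the very long and branched chains, and the microsomal Cyp4a enzymes hydroxylate the last carbon of the chain. PPARα is a nuclear receptor that binds fatty acids, pairs with RXR on DNA and switches on most of these genes in the fasted liver.

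The members fell into 9 classes by role. Ppara itself was the receptor. The carnitine shuttle held Cpt1a, Cpt1b, Cpt2 and Slc25a20. Mitochondrial β-oxidation held the acyl-CoA dehydrogenases Acadm, Acadl, Acadvl and Acads, the later enzymes Hadha, Hadhb, Hadh, Acaa2, Eci1 and Decr1, and Etfdh, which passes the electrons on. Eci2 and Ech1 act on unsaturated chains in both organelles and stood apart. The peroxisomal class held Decr2, Ehhadh, Acaa1a, Acaa1b, Hsd17b4, Crot and Pex11a. The others were the thioesterases Acot1, Acot2, Acot3 and Acot4, the hydroxylases Cyp4a10, Cyp4a14 and Cyp4a12a, the uptake, activation and binding proteins Acsl1, Slc27a1, Slc27a2 and Fabp1, and a last class of Pdk4, Vnn1, Plin2 and Angptl4.

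Each array probe is a single strand of 60 bases, and the probe decides which transcripts a value counts. Of the 55 probes, 5 were listed by RefSeq for another gene too. All 3 probes of Cyp4a10 were also assigned to Cyp4a32, the Cyp4a12a probe to Cyp4a12b and the Cpt1b probe to Gm44502, so values under those 3 names may include the second gene. The probes of 4 members are printed 5′ to 3′ in lower case, with places in build mm9 as given per the file headers. Cyp4a10 and Cyp4a14 are shown as the pair most often used to read PPARα activity, and Ech1 and Eci1 as probes whose places span more bases than the probe holds. The Cyp4a10 probe lay on the plus strand at chr4:115198463-115198522 and is not the one used for the values here. The Cyp4a14 probe lay on the minus strand at chr4:115168609-115168668. The Ech1 probe spanned chr7:29616863-29617058 and the Eci1 probe chr17:24574515-24575912, both on the plus strand.
Cyp4a10: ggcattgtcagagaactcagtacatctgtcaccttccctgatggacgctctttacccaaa
Cyp4a14: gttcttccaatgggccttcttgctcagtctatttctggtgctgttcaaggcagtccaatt
Ech1: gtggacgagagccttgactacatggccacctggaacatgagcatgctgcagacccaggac
Eci1: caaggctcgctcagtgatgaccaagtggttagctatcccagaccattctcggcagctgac

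PPARα and RXR bind a direct repeat of a half-site with 1 base between the copies. The RefSeq promoters of build GRCm38.p6, from 250 bases before to 50 after each start, were searched on both strands for the perfect repeat, the half-site AGGTCA, any base N, and AGGTCA again. Of the 40 members, 31 had a promoter there, and these gave 35 promoters. No member promoter held the repeat without a mismatch, and 0.0396% of all 32851 promoters did. With up to 1 mismatch it was found in 1 member promoter (2.86%), against 0.554% of all. With up to 2 mismatches it was found in 4 (11.4%), against 3.86% of all, and with up to 3 in 10 (28.6%), against 24.6% of all. The 4 matches with up to 2 mismatches are printed with their neighbouring bases and with the 13 matched bases in capitals. They lay at chr6:71199804-71199832 on the minus strand for Fabp1, chr12:84038358-84038386 on the minus strand for Acot4, chr4:86670264-86670292 on the plus strand for Plin2 and chr9:108662134-108662162 on the plus strand for Slc25a20. A match of letters is a description and not a binding site, and elements outside this window were not searched.
Fabp1: tcagatatAGGCCATAGGTCAgtgattgt
Acot4: gcacagacCGGCCAAAGGTCAtgcttcgg
Plin2: tctgacttAGGTCAGGGGTCCtgaaagct
Slc25a20: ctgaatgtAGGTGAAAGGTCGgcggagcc

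A level here is the log2 of a probe's processed signal relative to the 75th percentile of its own array, so a level of 0 is that percentile. On each array 58.7% to 64.5% of the spots were well above background, and arrays of a group correlated at 0.984 to 0.994. Nr1h3 lay at -5.12 to -2.56 in KO FB1 and -5.13 to -3.98 in KO control livers, against 4.71 to 4.95 in WT FB1 and 4.76 to 5.06 in WT control livers. Nr1h2 lay at 0.31 to 0.80 and 0.34 to 0.72 in the KO FB1 and KO control groups, against 4.02 to 4.22 and 4.07 to 4.34 in the WT FB1 and WT control groups. No KO array overlapped a WT array for either gene. By probe signal, which is not a level per transcript, 25 of the 40 members were among the brightest decile of all genes tested.

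In KO livers, FB1 was followed by lower transcripts of 14 of the 40 members and a higher transcript of 1. They were called by limma with Benjamini-Hochberg adjustment over all 22088 genes at an adjusted p under 0.05. The lower members were Ppara, Cpt2, Slc25a20, Acadm, Acadl, Eci1, Etfdh, Eci2, Ech1, Decr2, Acaa1a, Pex11a, Acsl1 and Slc27a1, and the higher one was Cyp4a12a, which passed the filter on dim probes through KO FB1 alone. Of all genes tested, 41.2% were called, 16.5% higher and 24.6% lower, against 37.5%, 2.5% and 35% of the members. The members' overall share was near that background and is no result about these genes. Of the 40 members, 34 had a difference below 0 (85%), against 59.1% of all genes. The groups did not overlap for 2 members, Acaa1a and Etfdh, and for 18.4% of all genes.

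That count depended on the scaling between arrays. Quantile normalization gave 7 calls, of which 3 were higher and 4 lower, and the authors' deposited values gave 7, of which 2 were higher and 5 lower. In the authors' values Crot, Eci2 and Plin2 were read from other probes, and 5 of the 35 members read from the probe used here were called, 1 higher and 4 lower. Normexp background correction gave 17, of which 1 was higher and 16 lower. Of all genes, quantile normalization called 40.5%, the authors' values 37.2% and normexp correction 37.3%. Of those calls 48.3%, 49% and 41.5% were higher. The calls in all 4 scalings were Ppara, Etfdh, Acsl1 and Slc27a1, lower, and Cyp4a12a, higher. The median difference of the members was -0.26 on the log2 scale, -0.25 with normexp, -0.04 with quantile normalization and -0.02 in the authors' values. Over all genes it was -0.08, -0.05, -0.04 and -0.03. Quantile normalization moved the genes of the brightest decile by 0.23 and those of the dimmest by -0.08, and the members by a median of 0.21. The count was also lower without slide 3, which held KO FB1 replicates 1 and 6, with 6 members called. Without slide 1 it was 21, with Decr2 and Pex11a no longer called. Newly called lower there were Ehhadh, Hsd17b4, Acot1, Acot3, Acot4, Cyp4a14, Slc27a2 and Vnn1. Without slide 2 the count was 12. Of all 22088 genes, 4707 were called without slide 3, 6327 without slide 1 and 8377 without slide 2, against 9097 on all arrays.

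**Figure D1:**
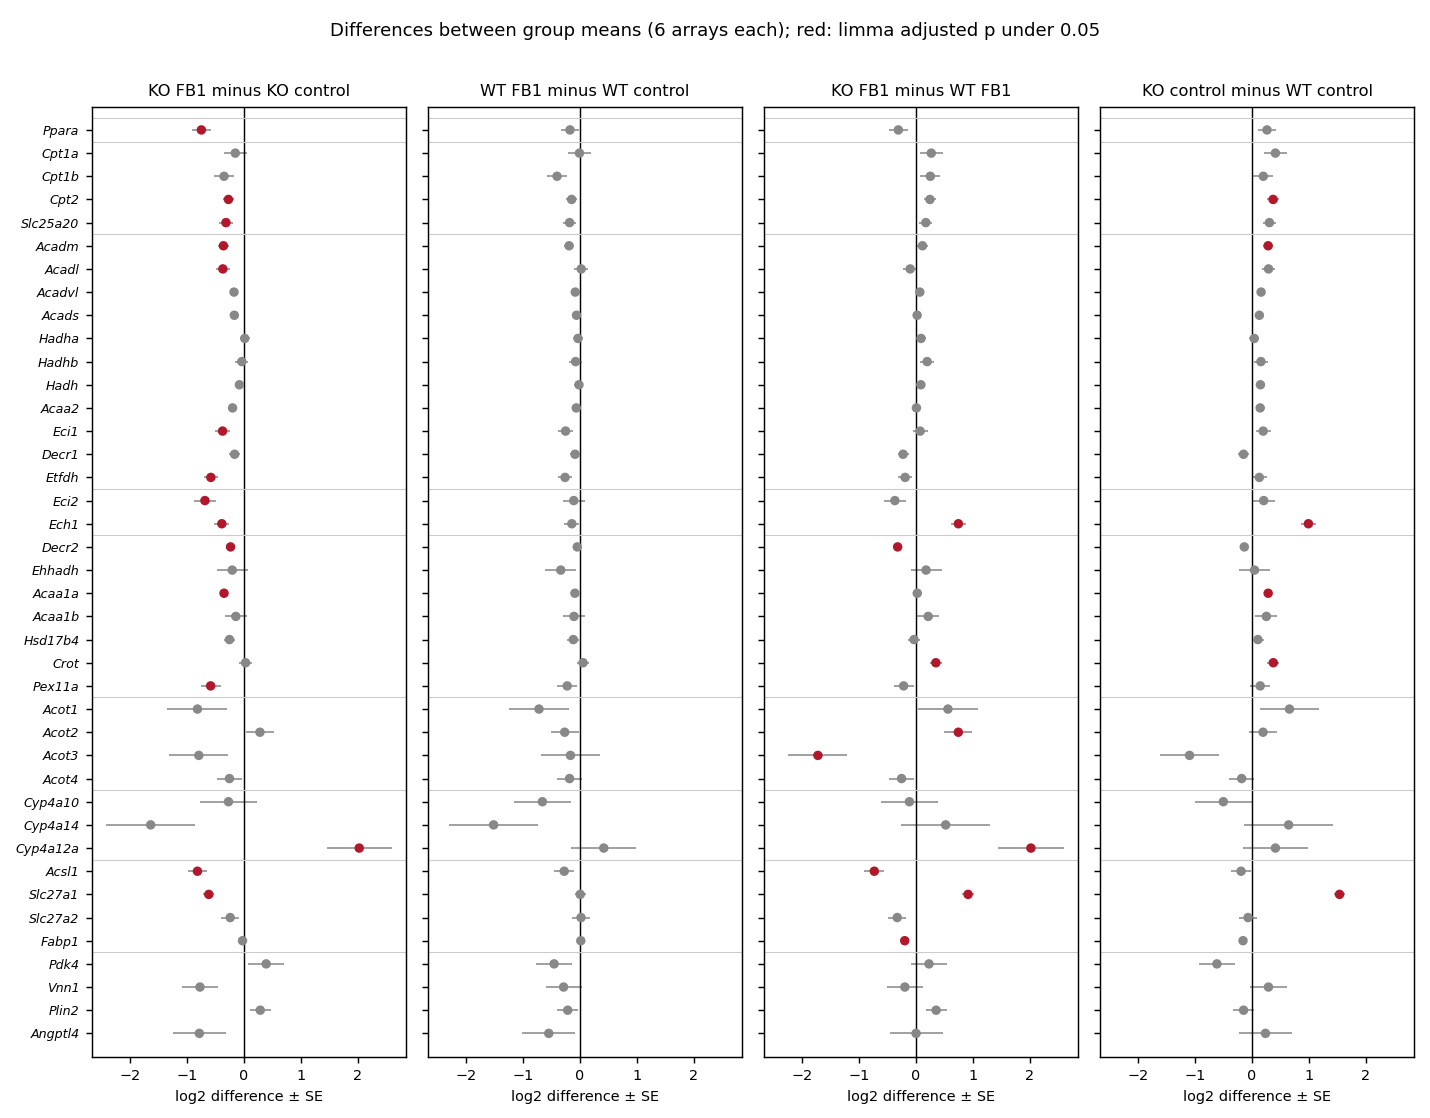
Log2 difference of each of the 40 members in 4 comparisons, with bars of 1 standard error (limma, n = 6 per group) and called members in red. In KO livers given FB1 most points lie left of 0 on this scaling, 14 of them called, while quantile normalization and the authors' values leave 4 and 5 called lower, and in WT livers given FB1 none is red.

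The receptor was among the lower genes. Ppara lay at 3.89, 4.34 and 4.85 (lowest, median and highest of 6 arrays) in KO FB1 livers, against 4.81, 5.09 and 5.26 in KO control livers. It lay at 4.31, 4.58 and 5.08 in WT FB1 livers and 4.43, 4.74 and 5.24 in WT control livers. Only the highest KO FB1 array reached into the KO control range, and both WT groups lay between, overlapping both KO groups. The difference of KO FB1 from KO control was -0.74 ± 0.17 (adjusted p = 0.00108), and it was called under each of the 12 alternatives of processing. On slides 1, 2 and 3 alone, each with 2 arrays per group, it was -0.62, -0.45 and -1.17. These values are from the brightest Ppara probe. A second Ppara probe gave -0.79 ± 0.18 for FB1 in KO livers. For KO against WT that probe gave 0.76 ± 0.18 in controls and -0.014 ± 0.19 under FB1.

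Of the 4 genes of fatty acid uptake, activation and binding, 2 fell in KO livers given FB1. Slc27a1 encodes FATP1, a fatty acid transport protein best known from muscle and fat. It lay at -0.64, -0.47 and 0.042 in KO FB1 and -0.062, 0.27 and 0.37 in KO control livers, against -1.42, -1.31 and -1.21 in WT FB1 and -1.47, -1.32 and -1.17 in WT control livers. The highest KO FB1 array lay above the lowest KO control array, the other KO FB1 arrays lay below all KO control arrays, and every KO array lay above every WT array. The FB1 difference in KO livers was -0.61 ± 0.10 (adjusted p = 4.16e-05), and -0.89, -0.34 and -0.61 on the 3 slides. Acsl1, the main long-chain acyl-CoA synthetase of the liver, lay at 5.31, 5.86 and 6.73 in KO FB1 livers, against 6.61, 6.70 and 6.88 in KO control livers. In WT livers it lay at 6.18, 6.66 and 6.97 with FB1 and 6.51, 7.02 and 7.16 without. The KO FB1 arrays were the most scattered of the 4 groups, and their highest lay inside the KO control range. The difference was -0.81 ± 0.17 (adjusted p = 0.00074), and -0.34, -0.87 and -1.23 on the 3 slides. Slc27a2, a very long-chain acyl-CoA synthetase, differed by -0.24 ± 0.15 and Fabp1, the fatty acid binding protein of the hepatocyte, by -0.021 ± 0.073, and neither was called, though Slc27a2 was without slide 1 (-0.56, adjusted p = 0.00654).

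**Figure D2:**
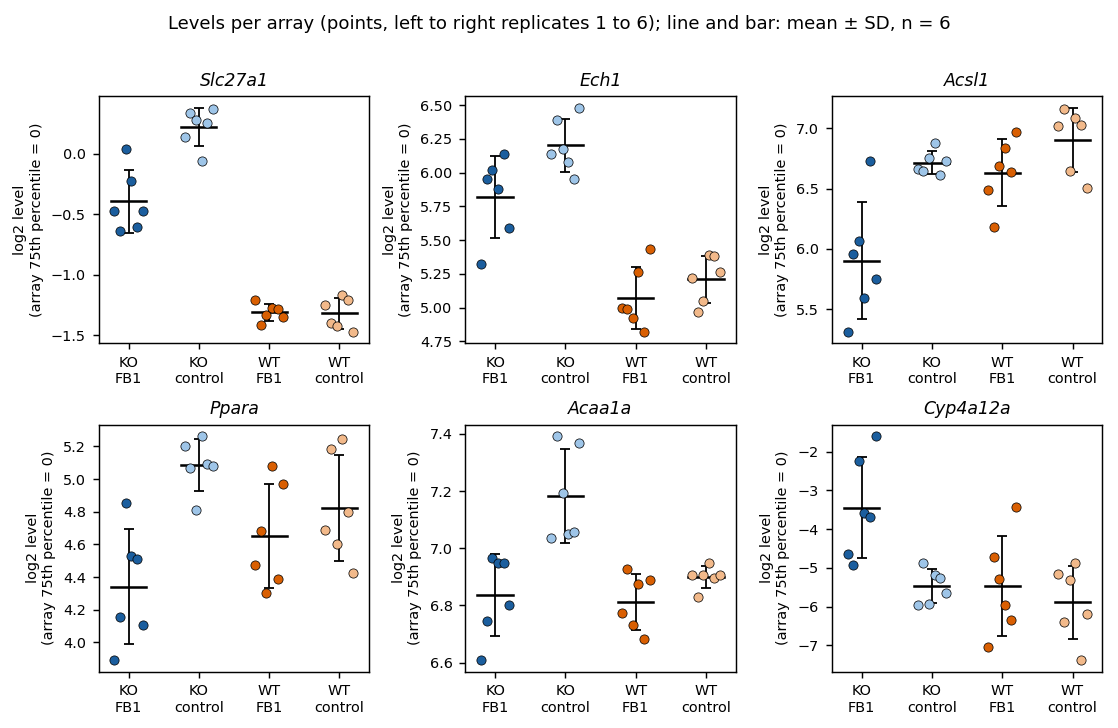
Level on each array of 6 called members, as log2 signal relative to the array's 75th percentile, with groups KO FB1, KO control, WT FB1 and WT control from left to right and bars for the mean ± SD (n = 6 each). Slc27a1 and Ech1 lie higher in KO than in WT livers, and Ppara, Acsl1 and Acaa1a lie lower in KO FB1 than in KO control livers. The Acaa1a difference was not called with quantile normalization or in the authors' values.

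In mitochondria, 4 of the 11 β-oxidation genes were called lower and none higher, though with quantile normalization and in the authors' values the class median lay just above 0 and Etfdh alone was called. Normexp correction called Acadvl and Acaa2 lower besides those 4 (adjusted p = 0.0496 and 0.00936). Of the 4 genes of the carnitine shuttle, 2 were called lower, and neither was called with quantile normalization or in the authors' values. Etfdh, which hands the electrons of the dehydrogenases to ubiquinone, lay at 4.17, 4.83 and 5.25 in KO FB1 livers, against 5.27, 5.38 and 5.49 in KO control livers. Its levels were 4.69, 4.99 and 5.25 in WT FB1 and 4.97, 5.26 and 5.38 in WT control livers. Every KO FB1 array lay below every KO control array, by -0.58 ± 0.13 (adjusted p = 0.000903) on average. On the 3 slides the difference was -0.33, -0.44 and -0.97. A second probe, which RefSeq does not list for Etfdh, gave -0.17 ± 0.17. With the mean of its probes Etfdh stayed called. Acadm, the medium-chain dehydrogenase, lay at 6.17, 6.46 and 6.74 in KO FB1 and 6.70, 6.80 and 6.95 in KO control livers. In WT livers it lay at 6.22, 6.29 and 6.56 with FB1 and 6.31, 6.54 and 6.73 without. The KO groups overlapped at their edges, and the difference was -0.36 ± 0.091 (adjusted p = 0.0034). It was not called with quantile normalization (-0.094, adjusted p = 0.304), in the authors' values (-0.090, adjusted p = 0.378) or without slide 3.

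Acadl and the 3 other mitochondrial calls had adjusted p nearer the threshold. Acadl, the long-chain dehydrogenase, differed by -0.37 ± 0.12 (adjusted p = 0.0179) and Eci1, an isomerase for unsaturated chains, by -0.37 ± 0.13 (adjusted p = 0.0261). Slc25a20, which carries acylcarnitines across the inner membrane, differed by -0.31 ± 0.12 (adjusted p = 0.0358). Cpt2, which frees the acyl group inside, lay at 5.34, 5.62 and 6.08 in KO FB1 and 5.75, 5.92 and 6.07 in KO control livers. It lay at 5.26, 5.38 and 5.62 in WT FB1 and 5.44, 5.55 and 5.64 in WT control livers. The range of the KO FB1 arrays enclosed that of the KO control arrays, with a difference of -0.27 ± 0.10 (adjusted p = 0.0406). A second Cpt2 probe, also listed by RefSeq, gave -0.66 ± 0.17. Leaving out single arrays of KO FB1 (replicates 1, 4 and 6) or KO control (1, 2, 3 and 6) took the Cpt2 call away, with adjusted p between 0.0535 and 0.116. The Slc25a20 call went without the same arrays except KO control replicate 3 (0.0529 to 0.113), and the Eci1 call without KO FB1 replicate 1 or 6 or KO control replicate 2 or 6 (0.0558 to 0.0788). Cpt2, Slc25a20 and Acadl differed by 0.07, 0.05 and 0.03 on slide 1 alone, on the other side of 0.

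The rate-controlling entry step was not called. Cpt1a, the liver form of carnitine palmitoyltransferase at the outer membrane, lay at 4.64, 5.15 and 5.90 in KO FB1 and 5.09, 5.29 and 5.64 in KO control livers. Its levels were 4.52, 4.92 and 5.23 in WT FB1 and 4.22, 5.10 and 5.38 in WT control livers. All 4 groups overlapped, and the FB1 difference in KO livers was -0.15 ± 0.20 (adjusted p = 0.592). The other uncalled mitochondrial members lay between -0.35 and 0.018. Acaa2, the last thiolase, differed by -0.20 ± 0.080 (adjusted p = 0.0542), Decr1 by -0.16 ± 0.10, Acads by -0.17 ± 0.072, Acadvl by -0.17 ± 0.071 and Hadh by -0.076 ± 0.079. Acads (adjusted p = 0.0373) and Acaa2 (adjusted p = 0.0243) were called lower without slide 2. Hadha and Hadhb, the subunits of the trifunctional protein, differed by 0.018 ± 0.085 and -0.033 ± 0.12. Cpt1b, the muscle form, differed by -0.35 ± 0.18.

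Both enzymes found in mitochondria and peroxisomes were called lower. Eci2, an enoyl-CoA isomerase, lay at 4.84, 5.20 and 5.81 in KO FB1 livers, against 5.69, 5.94 and 6.24 in KO control livers. It lay at 5.33, 5.50 and 6.14 with FB1 and 5.13, 5.93 and 6.12 without in WT livers. The highest KO FB1 array reached into the KO control range. The difference was -0.68 ± 0.19 (adjusted p = 0.00683), and it was not called with quantile normalization (adjusted p = 0.0617) or without slide 3. Ech1, a dienoyl-CoA isomerase, lay at 5.33, 5.92 and 6.14 in KO FB1 and 5.95, 6.16 and 6.48 in KO control livers, against 4.82, 4.99 and 5.44 in WT FB1 and 4.97, 5.24 and 5.39 in WT control livers. The KO groups overlapped broadly, and the FB1 difference was -0.38 ± 0.13 (adjusted p = 0.022). It was not called with quantile normalization (-0.13, adjusted p = 0.382), in the authors' values (-0.086, adjusted p = 0.628) or without slide 2 or slide 3. Single arrays that took the call away were KO FB1 replicates 1 and 6 and KO control replicates 2 and 6, with adjusted p between 0.0528 and 0.0706.

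Among peroxisomal genes 3 of 7 were called lower, while with quantile normalization and in the authors' values none was lower and Crot was called higher. The class median then lay at 0.013 and 0.0054, but the authors' values lacked Pex11a and read Crot from another probe, and over the other 5 genes their median was -0.013. Acaa1a, a peroxisomal thiolase, lay at 6.61, 6.87 and 6.97 in KO FB1 livers, against 7.04, 7.13 and 7.39 in KO control livers. In WT livers it lay at 6.68, 6.82 and 6.93 with FB1 and 6.83, 6.91 and 6.95 without. The KO groups did not overlap, with a difference of -0.35 ± 0.075 (adjusted p = 0.000841). It was smaller and uncalled with quantile normalization (-0.070, adjusted p = 0.439) and in the authors' values (-0.088, adjusted p = 0.35). Decr2, the peroxisomal dienoyl-CoA reductase, lay at 6.10, 6.29 and 6.52 in KO FB1 and 6.42, 6.52 and 6.66 in KO control livers, against 6.48, 6.61 and 6.73 in WT FB1 and 6.53, 6.68 and 6.79 in WT control livers. Its difference was -0.23 ± 0.070 (adjusted p = 0.0107), and it turned to the other side of 0 with quantile normalization (0.04) and in the authors' values (0.02). Pex11a, which acts in peroxisome division, differed by -0.58 ± 0.18 (adjusted p = 0.0112) and was not called without slide 1 or slide 3.

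The other 4 peroxisomal genes were not called on all arrays, though Ehhadh (-0.79, adjusted p = 0.0081) and Hsd17b4 (-0.32, adjusted p = 0.0398) were called lower without slide 1. Hsd17b4, the D-bifunctional protein, differed by -0.25 ± 0.10, and Acaa1b, the second thiolase, by -0.14 ± 0.20. Ehhadh, the L-bifunctional enzyme and a classical PPARα target, differed by -0.20 ± 0.27, with KO FB1 arrays at 3.16 to 5.57 and KO control arrays at 3.88 to 4.83. Crot, which makes medium-chain acylcarnitines for export to mitochondria, lay at 5.70, 6.10 and 6.45 in KO FB1 and 5.76, 6.06 and 6.28 in KO control livers, against 5.66, 5.74 and 5.78 and 5.41, 5.70 and 5.82 in the WT FB1 and WT control groups. Its FB1 difference in KO livers was 0.033 ± 0.11 (adjusted p = 0.834) on the main scaling. It was called higher with quantile normalization (0.30, adjusted p = 0.0281). The authors' value for Crot (0.92, adjusted p = 0.016) came from its second probe, since 9 of the 24 arrays had no value there for the probe used here. That second probe, which RefSeq does not list for Crot, gave 0.93 ± 0.30 on the main scaling too.

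Of the 3 Cyp4a genes, Cyp4a14 and Cyp4a10 were not called. Cyp4a14 lay at -4.57, -1.22 and 0.76 in KO FB1 livers, against -1.24, 0.065 and 1.54 in KO control livers. Its levels were -3.99, -2.10 and 0.095 in WT FB1 and -2.49, -0.65 and 1.09 in WT control livers. The 4 groups overlapped over wide ranges, and the difference in KO livers was -1.64 ± 0.78 (adjusted p = 0.098). On slides 1, 2 and 3 it was 0.83, -1.87 and -3.87, so the slides differed in direction, and it was called lower without slide 1 (-2.87, adjusted p = 0.034). Cyp4a10 lay at 0.75, 3.48 and 4.37 in KO FB1 and 2.36, 3.28 and 3.89 in KO control livers, against 2.27, 3.06 and 4.26 in WT FB1 and 2.19, 3.80 and 4.71 in WT control livers. These groups overlapped too, with a difference of -0.27 ± 0.50 (adjusted p = 0.702) and of 0.99, 0.071 and -1.86 on the 3 slides.

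Cyp4a12a, a hydroxylase of arachidonic acid that is abundant in male mice, was called higher, but it entered the test through KO FB1 alone, the group where it was high. It lay at -4.93, -3.63 and -1.60 in KO FB1 livers, against -5.95, -5.46 and -4.89 in KO control livers. In WT livers it lay at -7.05, -5.63 and -3.44 with FB1 and -7.39, -5.75 and -4.88 without. Its probe was dim in these females, well above background on 6 KO FB1, 4 KO control, 3 WT FB1 and 3 WT control arrays. The KO groups overlapped by the lowest KO FB1 array, and the difference was 2.03 ± 0.57 (adjusted p = 0.00692). It was smaller with normexp correction (0.80, adjusted p = 0.00255) and in the authors' values (1.05, adjusted p = 0.00364). With no filter on dim probes the adjusted p was 0.0136. With dim arrays raised to the lowest signal measured above background it was 1.94 ± 0.45 (adjusted p = 0.00163). The difference was 1.29, 2.89 and 1.91 on the 3 slides, and the call was lost without slide 2.

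None of the thioesterases, which release free fatty acids from coenzyme A, was called in KO livers on all arrays. Without slide 1, Acot1 (-1.54, adjusted p = 0.0419), Acot3 (-1.84, adjusted p = 0.0123) and Acot4 (-0.70, adjusted p = 0.0252) were called lower. Acot1, the cytosolic form, differed by -0.81 ± 0.53 and Acot4, a peroxisomal form, by -0.25 ± 0.22. Acot3, another peroxisomal form, lay at -0.37, 0.19 and 2.69 in KO FB1 and 0.63, 1.72 and 2.34 in KO control livers, against 0.99, 2.61 and 3.95 in WT FB1 and 2.34, 2.49 and 3.71 in WT control livers. Its KO difference was -0.79 ± 0.52 (adjusted p = 0.232), with 1.31 on slide 1 and -1.85 and -1.83 on the others. Acot2, the mitochondrial form, lay at 0.083, 0.49 and 1.76 in KO FB1 and 0.16, 0.53 and 0.68 in KO control livers, against -0.28, -0.086 and 0.61 and -0.18, 0.17 and 0.69 in the WT FB1 and WT control groups. It differed by 0.29 ± 0.24 (adjusted p = 0.37), with KO FB1 replicates 2 and 5 above every other array.

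The last class was uncalled as well in the fit of all 4 groups. Vnn1, the pantetheinase that recycles the vitamin part of coenzyme A, differed by -0.77 ± 0.32 (adjusted p = 0.0561) and was called lower without slide 1 (-1.34, adjusted p = 0.0008). Angptl4, a secreted inhibitor of lipoprotein lipase, differed by -0.78 ± 0.47 (adjusted p = 0.188), and it was called when the KO groups were fitted alone (adjusted p = 0.0206). Pdk4, which shuts off pyruvate dehydrogenase, and Plin2, which coats lipid droplets, differed upward by 0.39 ± 0.32 and 0.29 ± 0.18. Plin2 was called higher with quantile normalization (0.55, adjusted p = 0.0214). Its second probe gave 0.014 ± 0.22 on the main scaling. The authors' values, which read Plin2 from that probe, did not call it.

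Markers of other cell types moved in the same comparison, where 24.6% of all genes were called lower and 16.5% higher. Hepatocyte markers were called lower for 5 of 12 in KO livers given FB1, among them Cps1 (-0.83), Tat (-1.17) and Asgr1 (-0.28), and their summed log2 level was 11.87 to 12.34 in KO FB1 and 12.08 to 12.36 in KO control livers. With quantile normalization 2 were lower and 1 was higher, and in the authors' values 1 of 11 was lower and 1 higher. Of 8 macrophage markers 5 were higher, with a summed level of 6.83 to 7.28 in KO FB1 and 5.83 to 6.34 in KO control livers. Of 8 stellate cell markers 7 were higher, at 6.88 to 7.18 against 6.30 to 6.61, and of 4 cell cycle markers 4 were higher, at 1.59 to 3.22 against 0.085 to 0.81. Trem2 of macrophages differed by 2.87, Col1a1 of stellate cells by 2.75 and Mki67 of cycling cells by 2.13. Of 5 cholangiocyte markers 1 was higher, near the share of all genes. Bright enough to test were 3 of 5 adipocyte and 1 of 3 muscle markers, of which none was called. Their part in the falls of the members was not tested, and in whole liver fewer hepatocytes and less RNA per hepatocyte cannot be told apart.

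In WT livers the same dose gave 0 called members of 40 by limma. Of all genes 2.89% were called, 2.06% higher and 0.824% lower. At an unadjusted p under 0.05 there was 1 member, Cpt1b (-0.40 ± 0.18, adjusted p = 0.238), or 2.5% of the members against 18.1% of all genes. The groups did not overlap for 0 members and for 2.33% of all genes. Quantile normalization, normexp correction and the authors' values gave 0 as well, and Etfdh was called without slide 3. Those scalings called 2.47%, 2.36% and 1.97% of all genes. Of the 40 members, 34 had a difference below 0, against 57.3% of all genes. That count is on the main scaling, and the class medians of mitochondrial and peroxisomal genes were above 0 with quantile normalization and in the authors' values.

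No member's difference in WT livers passed the test. Ppara differed by -0.17 ± 0.17 (adjusted p = 0.616), Cpt1a by -0.0062 ± 0.20 (adjusted p = 0.992), Slc27a1 by 0.0076 ± 0.10 (adjusted p = 0.98) and Acsl1 by -0.27 ± 0.17 (adjusted p = 0.425). The mitochondrial Etfdh and Acadm differed by -0.26 ± 0.13 (adjusted p = 0.28) and -0.19 ± 0.091 (adjusted p = 0.278). Cyp4a14 differed by -1.52 ± 0.78 (adjusted p = 0.31), close to its value in KO livers, and Cyp4a10 by -0.66 ± 0.50 (adjusted p = 0.515). Among the 8 macrophage, 8 stellate and 4 cell cycle markers, 3, 4 and 4 were higher in WT livers given FB1, and 0 of 12 hepatocyte markers were called. Of all genes 2.06% were called higher there and 0.824% lower. The summed levels in WT FB1 livers were 5.91 to 6.58 for macrophage and 6.34 to 6.69 for stellate markers, against 5.66 to 6.71 and 6.06 to 6.42 in WT control livers. For cell cycle markers they were 0.95 to 2.55 against -1.73 to 1.05, and for hepatocyte markers 12.15 to 12.39 against 12.17 to 12.29.

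Whether FB1 acted differently by genotype was tested with the interaction, the FB1 difference in KO minus that in WT livers. It called 1 member, Slc27a1, at -0.62 ± 0.14 (adjusted p = 0.00775), and 9.3% of all genes, 4.46% higher and 4.84% lower. It was not called in the authors' values (-0.50, adjusted p = 0.0781) or without slide 1 or slide 3. Of all the genes called, 47.9% were higher on the main scaling and 58.7% in the authors' values. Acaa1a (-0.26 ± 0.11, adjusted p = 0.126), Ppara (-0.57 ± 0.23, adjusted p = 0.129), Acadl (-0.39 ± 0.17, adjusted p = 0.153), Acsl1 (-0.54 ± 0.25, adjusted p = 0.175) and Eci2 (-0.58 ± 0.27, adjusted p = 0.192) came next. The falls of those genes in KO livers are therefore not shown to differ from their values in WT livers. Taking the mean of a gene's probes called Ppara too, and leaving out 1 array at a time gave 1 to 3 members, with 3 without KO FB1 replicate 5 and 2 without KO FB1 replicate 3.

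**Figure D3:**
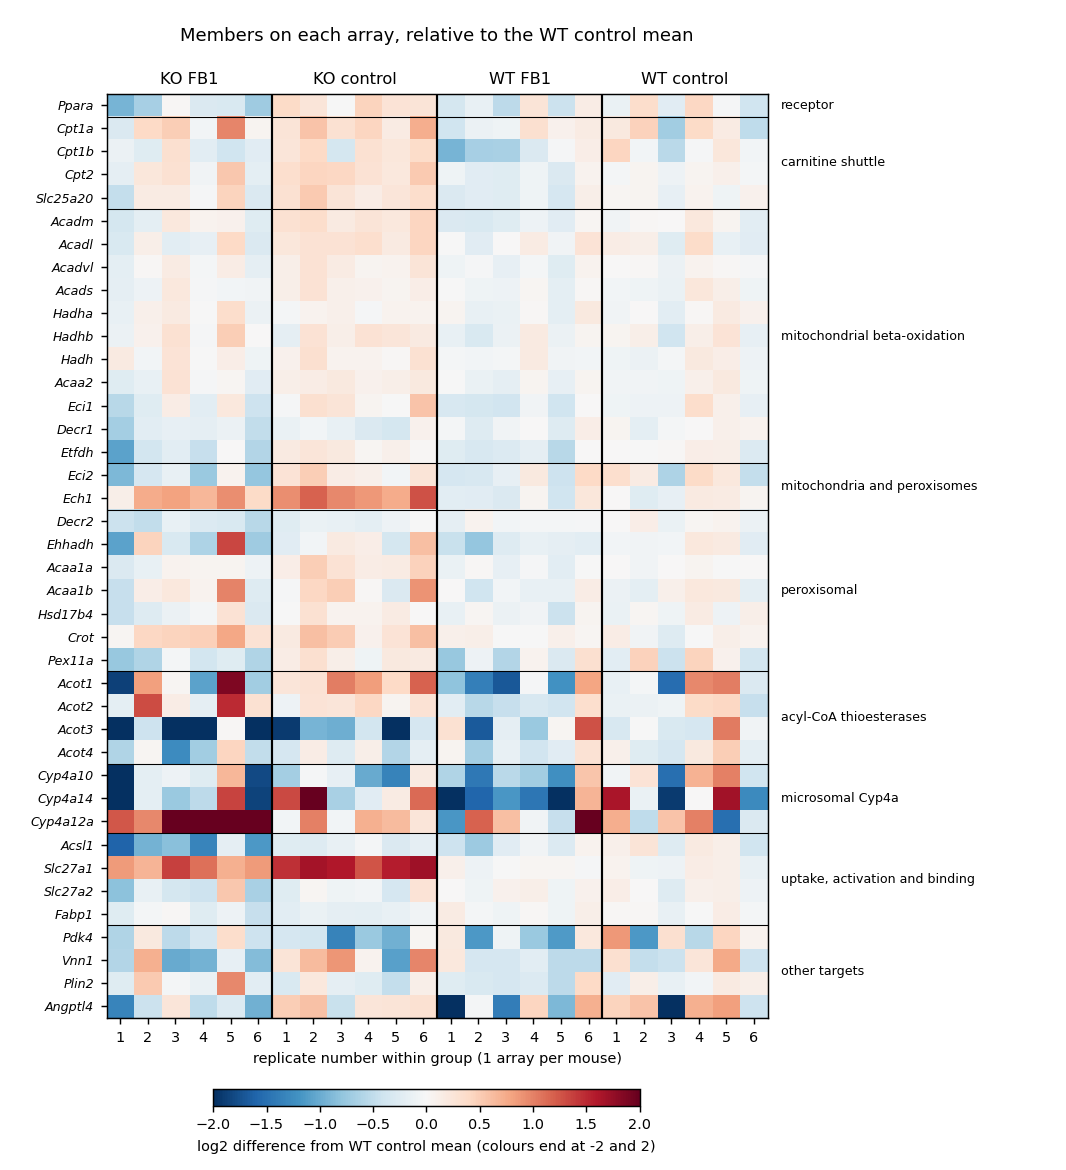
Log2 level of each of the 40 members on each of the 24 arrays relative to its mean in WT control livers, with groups KO FB1, KO control, WT FB1 and WT control from left to right and colours ending at -2 and 2. Cyp4a14, Cyp4a12a, Acot1, Acot3 and Cyp4a10 vary most between arrays of a group, and KO FB1 replicates 1 and 5 hold many of the lowest and highest values.

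Without FB1, 6 members were higher in KO than in WT livers and 0 were lower. They were Slc27a1, Ech1, Acaa1a, Cpt2, Crot and Acadm, 15% of the members against 15.2% of all genes called, 7.21% higher and 8.02% lower. The groups did not overlap for 5 members, namely Slc27a1, Ech1, Acaa1a, Cpt2 and the uncalled Slc25a20, against 7.93% of all genes. Unadjusted p was under 0.05 for 11 members, 2 of them lower, against 26.8% of all genes, which is near the members' share. Slc27a1 differed by 1.54 ± 0.10 (adjusted p = 3.86e-11), a fold of 2.90, and by 1.57, 1.55 and 1.497 on the 3 slides. Ech1 differed by 0.99 ± 0.13 (adjusted p = 5.79e-06), and by 0.89, 1.09 and 0.99 on the slides. Both stayed called under each of the 12 alternatives.

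The other 4 rises were below 0.4 on the log2 scale. Acaa1a differed by 0.28 ± 0.075 (adjusted p = 0.0109), Cpt2 by 0.37 ± 0.10 (adjusted p = 0.0153), Crot by 0.37 ± 0.11 (adjusted p = 0.0185) and Acadm by 0.28 ± 0.091 (adjusted p = 0.0373). Second probes of Acaa1a, Cpt2 and Crot gave 0.31 ± 0.16, 0.57 ± 0.17 and 0.11 ± 0.30. Crot was not called without KO control replicate 2 or WT control replicate 3 (adjusted p = 0.0525 and 0.0526). Acadm was not called without KO control replicate 1, 2, 4 or 6 or WT control replicate 1, 2, 3 or 6 (0.0527 to 0.0949). Acaa1a was not called with probe means or without slide 1, 2 or 3, and Cpt2 not without slide 2 or 3. Crot was also not called with probe means, without slide 1 or 2, or in the authors' values, read from its second probe. Acadm was also lost with no filter on dim probes, with the replicate number as a block and without slide 1, 2 or 3. Without slide 1, 2 or 3 the members called were 3, 2 and 4, and the 2 without slide 2 were Ech1 and Slc27a1. Of all genes 1838, 2386 and 1838 were called in those fits, against 3363 on all arrays. Ppara (0.26 ± 0.17), Cpt1a (0.41 ± 0.20), Cyp4a10 (-0.50 ± 0.50), Cyp4a14 (0.64 ± 0.78) and Acot3 (-1.10 ± 0.52) were not called. A second Ppara probe gave 0.76 ± 0.18, and with the mean of a gene's probes Ppara was called higher.

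Under FB1, 9 members differed between KO and WT livers, 5 higher and 4 lower, or 22.5% against 32.8% of all genes, 14.5% higher and 18.3% lower. The groups did not overlap for 1 member, Slc27a1, against 15.2% of all genes. Slc27a1 differed by 0.92 ± 0.10 (adjusted p = 1.72e-07) and Ech1 by 0.75 ± 0.13 (adjusted p = 0.000115), both called under each of the 12 alternatives. Ech1 differed by 1.18, 0.95 and 0.11 on the 3 slides. Crot (0.35 ± 0.11, adjusted p = 0.0145), Cyp4a12a (2.02 ± 0.57, adjusted p = 0.00894) and Acot2 (0.75 ± 0.24, adjusted p = 0.0219) were the other higher members. Cyp4a12a again passed the filter through KO FB1 alone, and its difference was 0.67 with normexp correction and 0.98 in the authors' values. Raised to the floor, it differed by 1.58 (adjusted p = 0.00976), and it was not called without slide 2. Crot was not called without slide 1 or 2, nor in the authors' values, which read it from the second probe (0.59 ± 0.30 on the main scaling). Acot2 was not called without KO FB1 replicate 5 (0.54, adjusted p = 0.0618) or replicate 2 (0.58, adjusted p = 0.0672). Nor was it called without slide 1, which held both of these arrays, or with the compared groups fitted alone.

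The members lower in KO than in WT livers under FB1 were Decr2 (-0.32 ± 0.070, adjusted p = 0.00104), Acsl1 (-0.73 ± 0.17, adjusted p = 0.00231), Acot3 (-1.72 ± 0.52, adjusted p = 0.0129) and Fabp1 (-0.20 ± 0.073, adjusted p = 0.0426). Decr2 was called in neither quantile normalization nor the authors' values, nor without slide 3. Acsl1 was not called without slide 3, and Acot3 not without slide 2 or 3. The Fabp1 call was lost without any of KO FB1 replicates 1, 4 and 6 or WT FB1 replicates 1, 4 and 6 (adjusted p = 0.0684 to 0.128). On slide 1 alone Fabp1 differed by 0.0093. Quantile normalization and the authors' values each gave 14 calls, 12 higher and 2 lower, the lower ones being Acot3 and Acsl1. Of all genes they called 33.8% and 31.5%, and 52% and 52.6% of those calls were higher. Ppara (-0.31 ± 0.17), Cpt1a (0.27 ± 0.20), Cyp4a10 (-0.11 ± 0.50) and Cyp4a14 (0.52 ± 0.78) were not called. The second Ppara probe gave -0.014 ± 0.19.

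Set side by side for FB1 in KO livers, the median difference of the 11 mitochondrial genes was -0.17, of the 7 peroxisomal genes -0.23 and of the 3 Cyp4a genes -0.27. The -0.27 is the value of the uncalled Cyp4a10, between Cyp4a14 at -1.64 and the dim Cyp4a12a at 2.03. It therefore shows no common fall of the Cyp4a genes. The mitochondrial and peroxisomal medians turned to 0.026 and 0.013 with quantile normalization, and to 0.052 and 0.0054 in the authors' values (the second over 6 genes, without Pex11a), while the Cyp4a median was -0.15 and -0.13. In WT livers given FB1 the medians were -0.074, -0.10 and -0.66, and the first pair again turned above 0 with quantile normalization (0.016 and 0.0060). The -0.66 is again the value of Cyp4a10, between Cyp4a14 at -1.52 and Cyp4a12a at 0.42. Between KO and WT controls the medians were 0.15, 0.14 and 0.41, all above 0 in the 4 scalings. There the Cyp4a median was 0.03 with normexp and 0.08 in the authors' values, and -1.02 on slide 1 alone. The 0.41 is the value of the dim Cyp4a12a, which was 0.12 with dim arrays raised to the lowest signal measured above background. Cyp4a10 and Cyp4a14 differed by -0.50 ± 0.50 and 0.64 ± 0.78. The carnitine shuttle had a median of -0.29 for FB1 in KO livers and 0.34 between the controls, on the same side of 0 in the 4 scalings. The first was smaller with quantile normalization (-0.14) and in the authors' values (-0.14). Within slides the FB1 difference in KO livers was not uniform. On slides 1, 2 and 3 alone the median was -0.03, -0.12 and -0.36 for mitochondrial genes, -0.10, -0.24 and -0.57 for peroxisomal genes and 0.99, 0.07 and -1.86 for the Cyp4a genes.

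**Figure D4:**
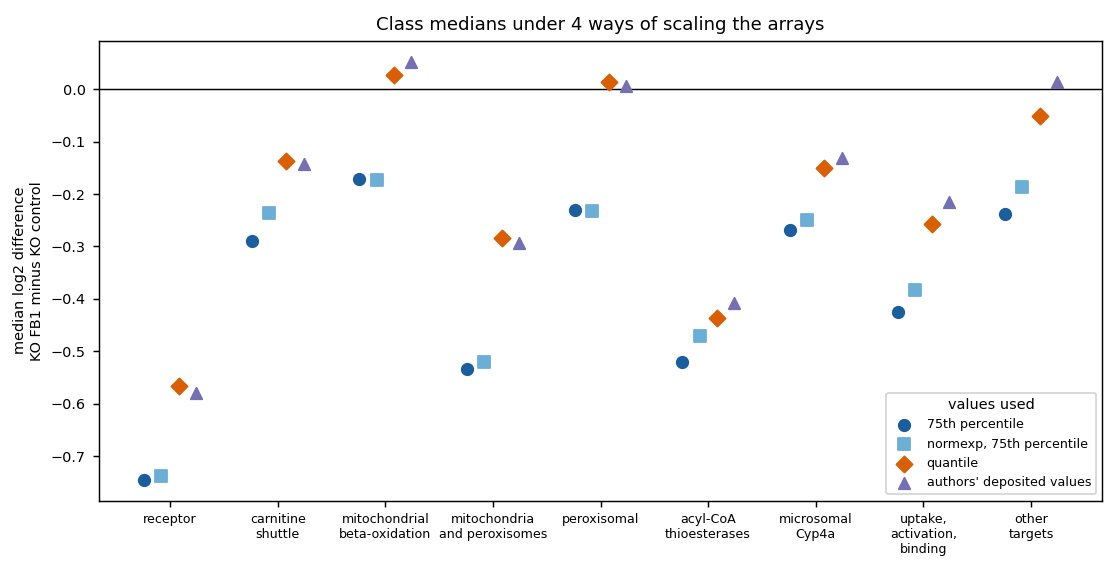
Median log2 difference of each of the 9 classes for KO FB1 minus KO control livers under 4 scalings, namely the 75th percentile, normexp correction, quantile normalization and the authors' deposited values. The receptor lies between -0.74 and -0.57 in all 4, while the mitochondrial and peroxisomal classes lie below 0 in the first pair and within 0.06 of 0 in the second pair, where the authors' peroxisomal value lacks Pex11a.

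The classes also differed in how far mice of 1 group spread. The pooled SD within groups was 1.44 for Cyp4a14, higher than for 99.8% of all genes tested, 1.05 for Cyp4a12a and 0.93 for Cyp4a10. It was 0.97 for Acot1, 0.95 for Acot3 and 0.86 for Angptl4. The class median SD was 1.05 for the Cyp4a genes, 0.70 for the thioesterases, 0.19 for the peroxisomal and 0.15 for the mitochondrial genes, against 0.21 over all genes. Ehhadh had the widest spread of the peroxisomal genes, with an SD of 0.89 in KO FB1 and 0.34 in KO control livers, against 0.24 in WT FB1 and 0.17 in WT control livers.

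**Figure D5:**
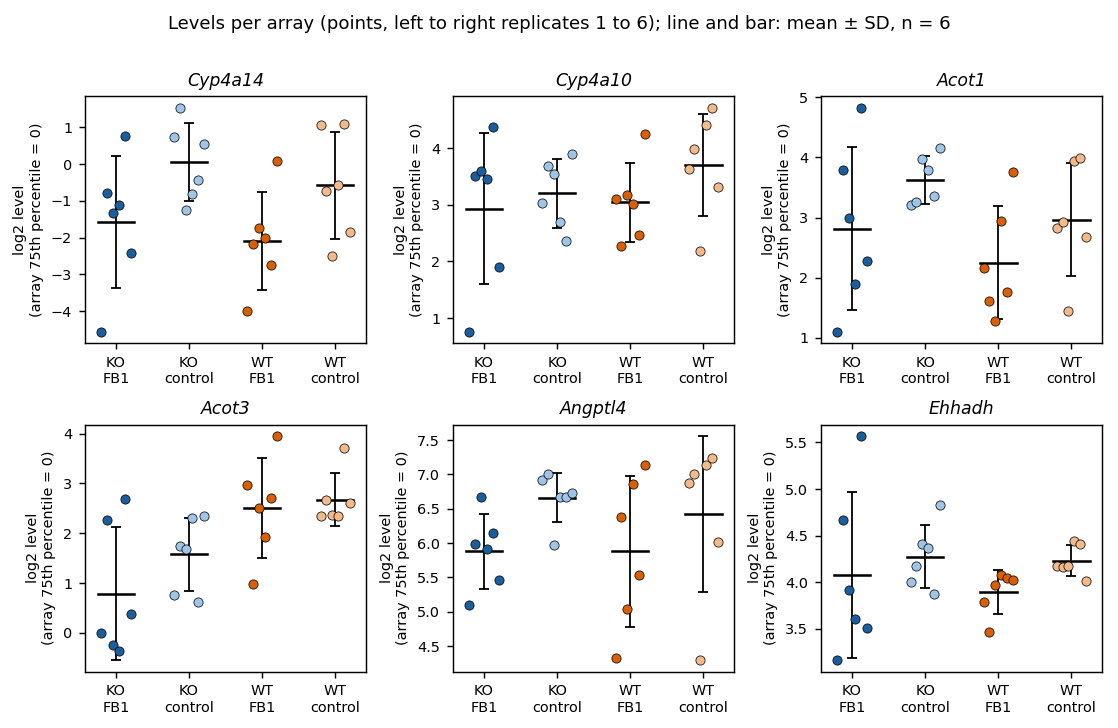
Level on each array of the 6 members Cyp4a14, Cyp4a10, Acot1, Acot3, Angptl4 and Ehhadh, as log2 signal relative to the array's 75th percentile, with groups KO FB1, KO control, WT FB1 and WT control from left to right and bars for the mean ± SD (n = 6 each). Ranges within a group reach 5.34 for Cyp4a14 in KO FB1 livers, and none of the 6 genes was called for FB1 in either genotype in the fit of all 24 arrays.

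Single mice stood out across the members. KO FB1 replicate 1 had the lowest level of its group in 30 of the 40 members, against 18.5% of all genes, and KO FB1 replicate 5 the highest in 25, against 15.2%. WT FB1 replicate 6 was highest in 26 members, against 15.4% of all genes, and WT control replicate 3 lowest in 20, against 18.6%. KO control replicate 6 was highest in 20, against 22.4% of all genes. For FB1 in KO livers, 11 members were called without KO FB1 replicate 1 and 20 without replicate 5. Of all genes 7976 and 8962 were called in those fits, against 9097 on all arrays. Of the 15 calls in that comparison, 11 held with any single array left out, and 12 had the same direction on all 3 slides.

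Genes around the members were read from 4 lists, set against the 16.5% of all genes called higher and 24.6% called lower with FB1 in KO livers. Of 12 receptors and coregulators, 1 rose and 7 fell with FB1 in KO livers. Pparg, the fat cell member of the PPAR family, differed by 0.53 ± 0.11 (adjusted p = 0.000704). Ppargc1a and Ppargc1b, coactivators of mitochondrial genes, differed by -1.09 ± 0.29 (adjusted p = 0.00416) and -0.94 ± 0.25 (adjusted p = 0.00378). With quantile normalization 1 rose and 3 fell, and in the authors' values 2 rose and 3 fell.

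Of 17 further PPARα targets tested, 2 rose and 5 fell with FB1 in KO livers. With quantile normalization 2 rose and 1 fell, and in the authors' values 2 rose and 2 fell. Cidec, a lipid droplet protein, differed by 1.88 ± 0.31 (adjusted p = 6.66e-05) and Ucp2, a mitochondrial carrier, by 0.82 ± 0.13 (adjusted p = 3.49e-05). Abcd3, a transporter into peroxisomes, differed by -0.40 ± 0.10 (adjusted p = 0.00198) and was not called with quantile normalization (-0.15, adjusted p = 0.184).

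Of 15 further genes of mitochondrial oxidation and ketogenesis, 11 fell, and of 21 further peroxisomal genes, 15 fell, with none higher in either list, against 24.6% of all genes called lower. Acadsb and Ivd, dehydrogenases of branched-chain amino acid breakdown, differed by -0.84 ± 0.10 (adjusted p = 1.87e-06) and -0.76 ± 0.11 (adjusted p = 8.95e-06), and Echs1, the short-chain hydratase, by -0.64 ± 0.10 (adjusted p = 2.8e-05). The peroxisomal reductase Pecr differed by -0.98 ± 0.11 (adjusted p = 8.89e-07), catalase (Cat) by -0.89 ± 0.12 (adjusted p = 5.19e-06) and the import receptor Pex7 by -0.75 ± 0.10 (adjusted p = 6.84e-06). With quantile normalization 2 of the mitochondrial genes were higher and 9 lower, and 10 of the peroxisomal genes were lower. The authors' values gave 2 higher and 8 lower of 13, and 9 lower.

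In WT livers given FB1, 1 gene of these lists was called, the peroxisomal import factor Pex19 (-0.33 ± 0.068, adjusted p = 0.00612), which was not called in the authors' values (adjusted p = 0.0552). Of all genes 2.89% were called there. The interaction, which called 4.46% of all genes higher and 4.84% lower, called Pparg (0.57), Cidec (1.97) and Ucp2 (0.71) higher. It called 4 mitochondrial genes lower, among them Ivd (-0.78), Acadsb (-0.67) and Echs1 (-0.50), and 3 peroxisomal genes, Pecr (-0.73), Pex7 (-0.66) and Cat (-0.70). For those genes the FB1 difference in KO livers differed by this test from that in WT livers. The members were tested too, and on all arrays only Slc27a1 passed, with Ppara besides when probe means were used.

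Between KO and WT controls, 2 receptors and coregulators were higher, Med1 (0.48), a subunit of the Mediator complex, and Pparg (0.54). The fatty acid uptake gene Cd36 (-0.96) was the 1 further target called, and it was lower. Of the mitochondrial list 3 were higher and 1 lower, with Acat1 (0.59) and Bdh1 (0.44) of ketone metabolism higher and Acad8 (-0.34) lower. Of the peroxisomal list 3 were higher, Amacr (0.84), Scp2 (0.27) and Pex19 (0.24). Over all genes 7.21% were higher and 8.02% lower between the controls. In that comparison 0 of 12 hepatocyte markers were called by limma, and 3 macrophage and 2 stellate markers were higher and 2 macrophage markers lower.

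Under FB1, KO and WT livers differed in 2 higher and 2 lower receptors and coregulators, with Pparg at 1.12, Med1 at 0.37 and Ppargc1b at -0.77. Of the further targets 2 were higher and 4 lower, among them Cidec (2.11) and Cd36 (-0.82). The mitochondrial list gave 1 higher and 7 lower, with Ivd at -0.57 and Acad8 at -0.52, and the peroxisomal list 2 higher and 5 lower, with Hacl1 at -1.04, Cat at -0.82 and Pecr at -0.65. With quantile normalization the mitochondrial list gave 4 higher and 6 lower, and in the authors' values 3 higher and 6 lower of 13. Over all genes 14.5% were higher and 18.3% lower. Beside them 4 hepatocyte markers were lower (2 lower and 1 higher with quantile normalization, 1 lower and 1 higher in the authors' values), 5 macrophage markers higher and 2 lower, and 7 stellate markers higher, and their part in these differences was not tested.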

How the data were processed

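Liver RNA (TriZol extraction and Cy3 dye, per the labels) was measured on 24 single-colour arrays. The deposited scanner files hold the intensity of each spot, which per the file headers Agilent Feature Extraction 10.10.1.1 had background-subtracted and spatially detrended. The authors' log2 values of 33417 probes were deposited as well. The submitters' processing notes name limma and Agilent Feature Extraction, and the sources used here give no other step behind the log2 values.

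Values are log2 of the processed intensity minus each array's 75th percentile over 59305 non-control spots. Outlier spots were set to missing, and 0 spots were saturated. Tested probes had at least 4 values in each group and, in 1 group or more, lay well above background on all arrays not marked as outliers. This kept 33417 of 56605 probes and 22088 genes, each read from its brightest probe. All 24 arrays entered 1 limma 3.58.1 fit of 4 group means (R 4.3.3, data.table in version 1.17.8), with 5 comparisons, eBayes and Benjamini-Hochberg adjustment over all genes, checked on simulated data. Values after ± are standard errors unless named SD. Python 3.11.15 with matplotlib 3.10.9 drew the figures.

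The members, the lists and the tests were chosen with earlier results of these data known. Full values were given for Ppara, Cpt1a, Cyp4a10, Cyp4a14 and the 8 called members of smallest p per comparison, and up to 3 called genes of smallest p per list. The 12 alternatives were 3 other scalings (quantile, normexp with an offset of 50, the authors' values), no filter, outliers kept, probe means, slide or replicate number as a block, the compared groups alone, and each slide left out. Single slides and single arrays left out came beside them. The arrays lay on 3 slides with 2 arrays of every group each. The authors gave enough values for 38 of the 40 members, without Pex11a and Vnn1, and those of Plin2, Crot and Eci2 came from another probe. Some genes of the lists are not reported here.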

Additional observations from a re-analysis of the deposited data

Results flagged for a closer look

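In 8 of 160 groups of 6 arrays (5%), about the 1 in 20 that chance gives, the highest or lowest array of a member lay far from the other 5. The gap to the nearest array, divided by the range of the group, exceeded Dixon's critical value there. In KO control livers, replicate 3 was lowest for Cpt1b at -2.80 and for Angptl4 at 5.98, replicate 2 was highest for Acads at 4.45, and replicate 1 was lowest for Hadhb at 4.80. In WT FB1 livers, replicate 4 was highest for Hadh at 5.32 and replicate 6 for Plin2 at 6.14. In WT control livers, replicate 6 was lowest for Etfdh at 4.97 and replicate 5 highest for Acot3 at 3.71.

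The FB1 difference of Slc27a1 in KO livers minus that in WT livers was -0.62, the 1 member for which the effects of the genotypes differed by test (limma, adjusted p = 0.00775).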

How the results depend on the processing

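Log2 differences of single slides rest on 2 arrays a group and have no test, and a change of side between 2 uncalled values was not counted as a reversal. The cause of each change was not tested. With quantile normalization the members called were 7 for FB1 in KO and 14 for KO against WT under FB1. The authors' values gave 7 and 14 too, and 0 for the interaction (3 at an unadjusted p under 0.05, limma). Without slide 3 the members called were 1 for FB1 in WT, 6 for FB1 in KO and 0 for the interaction (5 unadjusted). Without slide 1 they were 21 for FB1 in KO, 3 for KO against WT control and 0 for the interaction (13 unadjusted), and without slide 2 they were 2 for KO against WT control and 5 for KO against WT under FB1. A change of at least 1.5-fold besides the adjusted p left 5 members for FB1 in KO and 2 for KO against WT control. The mean of a gene's probes gave 2 for the interaction, and single arrays left out gave 1 to 3, with 3 without KO FB1 replicate 5 and 2 without replicate 3.

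Of all genes, FB1 in WT called 638, against 381 with its groups alone, 130 without slide 1, 0 without slide 2 (2277 unadjusted, limma), 417 at 1.5-fold, and 386 to 839 with 1 array left out, the lowest without WT FB1 replicate 1. FB1 in KO called 4707 without slide 3 and 3737 at 1.5-fold, against 9097. KO against WT control called 1838 without slide 1 and likewise without slide 3, and 1831 at 1.5-fold, against 3363. KO against WT under FB1 called 3496 without slide 3 and 3255 at 1.5-fold, against 7246. The interaction called 1258 with no filter on dim probes, 388 without slide 1, 46 without slide 3 and 1304 at 1.5-fold, against 2055.

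With the replicate number as a block, 0 members and 552 genes passed for FB1 in WT, 13 and 8912 for FB1 in KO, 5 and 3190 for KO against WT control, 8 and 6994 for KO against WT under FB1, and 1 and 1898 for the interaction. Deviations of same-numbered arrays correlated at -0.2 to 0.24, and 2, 0, 0 and 1 of 6 arrays per comparison of groups correlated best with their own number, so the numbers were not taken to pair the mice. The slide as a block left every count of members as it was.

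Decr2 for FB1 in KO turned to 0.043 with quantile normalization and 0.024 in the authors' values. On slide 1 alone Cpt2, Slc25a20 and Acadl for FB1 in KO turned to 0.067, 0.049 and 0.026, and Fabp1 for KO against WT under FB1 to 0.0093.

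The class medians moved by more than the spread between replicates as follows, with Eci2 and Ech1 called dual-organelle and Pdk4, Vnn1, Plin2 and Angptl4 the last class. With quantile normalization they were 0.026 (mitochondrial) and 0.013 (peroxisomal) for FB1 in KO. They were 0.22 (peroxisomal) for KO against WT under FB1. They were 0.024 (mitochondrial) for the interaction. In the authors' values they were 0.052 (mitochondrial), 0.0054 (peroxisomal) and -0.21 (uptake) for FB1 in KO. They were 0.22 (mitochondrial), 0.26 (peroxisomal) and -0.083 (uptake) for KO against WT under FB1. They were 0.028 (mitochondrial) and 0.034 (peroxisomal) for the interaction. Over the 5 peroxisomal genes read from the same probe these authors' medians were -0.013 for FB1 in KO and -0.012 for the interaction. On slide 1 alone they were -0.64 (receptor) and -0.24 (mitochondrial) for FB1 in WT. They were 0.058 (shuttle), -0.031 (mitochondrial), -0.10 (dual-organelle), 0.95 (thioesterase), 0.99 (Cyp4a), -0.13 (uptake) and 0.73 (last class) for FB1 in KO. They were -0.039 (receptor), 0.084 (shuttle), -1.02 (Cyp4a) and -0.64 (last class) for KO against WT control. They were 0.62 (shuttle), 0.23 (mitochondrial), 0.67 (dual-organelle), 0.29 (peroxisomal), 1.12 (thioesterase), 0.10 (uptake) and 0.83 (last class) for KO against WT under FB1. They were 0.028 (receptor), 0.37 (shuttle), 0.14 (mitochondrial), 0.29 (dual-organelle), 0.14 (peroxisomal), 1.86 (thioesterase), 2.51 (Cyp4a), 0.18 (uptake) and 1.62 (last class) for the interaction. On slide 2 alone they were 0.11 (receptor) and 1.87 (Cyp4a) for KO against WT under FB1. They were -0.11 (receptor) and 0.058 (mitochondrial) for the interaction. On slide 3 alone they were 0.47 (receptor), 0.11 (mitochondrial), 0.24 (dual-organelle) and 0.38 (thioesterase) for FB1 in WT. They were -1.17 (receptor), -0.59 (shuttle), -0.36 (mitochondrial), -0.96 (dual-organelle), -0.57 (peroxisomal), -1.26 (thioesterase), -1.86 (Cyp4a), -0.67 (uptake) and -0.65 (last class) for FB1 in KO. They were 0.61 (receptor) and 0.27 (mitochondrial) for KO against WT control. They were -1.03 (receptor), -0.27 (shuttle), -0.27 (mitochondrial), -0.52 (dual-organelle), -0.36 (peroxisomal), -1.09 (thioesterase), -2.30 (Cyp4a), -0.63 (uptake) and -0.33 (last class) for KO against WT under FB1. They were -1.64 (receptor), -0.63 (shuttle), -0.48 (mitochondrial), -1.20 (dual-organelle), -0.56 (peroxisomal), -1.49 (thioesterase), -2.02 (Cyp4a), -0.73 (uptake) and -0.55 (last class) for the interaction.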
